A study of Homo sapiens with 18 samples.

Results

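The 10 genes described here are the core regulators of the entry into G1 and of the step from G1 to S phase: MYC, the cyclins CCND1, CCND3, CCNE1 and CCNE2, the kinases CDK4 and CDK6, the kinase inhibitors CDKN1A (p21) and CDKN1B (p27), and RB1. They were chosen by gene symbol, because G0S2 is named for the switch between G0 and G1, and all 10 are listed in both deposited tables, among 14308 genes in MDA-MB-231, 14768 genes in T47D and 12666 genes in both. RNA was sequenced from 2 human breast cancer cell lines, T47D (estrogen receptor positive) and MDA-MB-231 (estrogen receptor negative), each in 3 groups of 3 libraries. The induced groups were labelled as G0S2 overexpression with doxycycline (0.5 ug/ml) given for 3 or 15 days, and the control group of each line was labelled day 0 without doxycycline. No group with doxycycline but without introduced G0S2 was analysed here, so what G0S2 does, what doxycycline does and what the vector does cannot be told apart. No control labelled day 3 or day 15 was analysed either, so time in culture cannot be told apart from them. The labels say neither whether a line is 1 clone nor whether replicate libraries are separate cultures. The series text mentions triplicates and, unlike the labels, Aza-resistant cells; the labels were followed. The p-values below measure only the spread between these libraries.

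In textbook outline, mitogens raise MYC and the D cyclins, which activate CDK4 and CDK6. These kinases phosphorylate the retinoblastoma protein RB1 and release E2F factors, which drive the E cyclins and the S phase genes, while p21 and p27 bind the cyclin-kinase complexes and restrain them. Cyclin D1 is a classical estrogen-induced gene in estrogen receptor positive breast cancer cells, and p21 is a classical p53 target, although breast lines often carry mutant p53. Much of the control of p27, of the E cyclins and of RB1 is exerted on the protein, which RNA does not measure.

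The promoters of both inhibitors are shown because these are the inhibitors whose RNA rose, CDKN1A in MDA-MB-231 and CDKN1B in T47D. Each is the 250 bases before the start in RefSeq (GRCh38.p14), printed 5′ to 3′ on the plus strand, from chr6:36678464-36678713 for CDKN1A and from chr12:12717118-12717367 for CDKN1B. Capitals mark matches to GGGCGG (GC box) and CCAAT on either strand.
CDKN1A: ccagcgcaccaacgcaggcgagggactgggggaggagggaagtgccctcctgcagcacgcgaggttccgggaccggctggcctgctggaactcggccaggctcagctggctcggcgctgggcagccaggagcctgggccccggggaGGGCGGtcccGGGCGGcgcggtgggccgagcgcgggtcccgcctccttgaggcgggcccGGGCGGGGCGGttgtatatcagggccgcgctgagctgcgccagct
CDKN1B: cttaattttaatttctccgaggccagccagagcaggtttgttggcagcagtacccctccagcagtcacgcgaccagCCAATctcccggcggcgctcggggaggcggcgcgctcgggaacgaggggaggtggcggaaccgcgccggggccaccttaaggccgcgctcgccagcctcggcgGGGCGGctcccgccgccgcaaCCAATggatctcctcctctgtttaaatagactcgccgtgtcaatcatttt
The CDKN1A window held 4 GC boxes, of which the last 2 share letters and print as 1 run, and no CCAAT box. The CDKN1B window held 1 GC box and 2 CCAAT boxes. A GC box was present in 42.6% and a CCAAT box in 32.0% of 35116 windows of this length. The windows were also searched on both strands for an E-box (CACGTG), an E2F motif (any of 3), a CRE (TGACGTCA), a TATA box (TATAAA) and a forkhead motif (TGTTTAC), and held none of these. The E2F motifs searched were TTTCGCG and TTTGGCG. The third E2F motif searched was TTTCCCG. Of all windows, 6.35% hold the E-box, 6.12% an E2F motif, 1.65% the CRE, 10.7% the TATA box and 2.98% the forkhead motif. No expression value was tested against these matches.

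Levels are in CPM, reads per M reads of the library, and folds are on the log2 CPM scale, induced over control. G0S2 itself was checked first. In MDA-MB-231 it stood at 25.48, 25.02 and 25.09 CPM in the control libraries, at 1484, 1506 and 1429 CPM at day 3 and at 1209, 1294 and 1103 CPM at day 15. In T47D it stood at 0.900, 0.277 and 0.376 CPM in the control libraries, at 883, 855 and 844 CPM at day 3 and at 766, 993 and 736 CPM at day 15. Every induced library thus stood far above the controls of its line. The MDA-MB-231 controls already carried G0S2 RNA, while the T47D controls held 14 to 40 reads of it.

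Depth was 40.1 to 51.0 M listed reads in T47D and 37.0 to 52.4 M in MDA-MB-231. All 8 T47D markers (among them ESR1, PGR and KRT8) were listed in T47D and all 6 MDA-MB-231 markers (among them VIM and AXL) in MDA-MB-231. ESR1, PGR, FOXA1 and TFF1 were not listed in MDA-MB-231, and 5 of 6 MDA-MB-231 markers, all but CD44, were not listed in T47D. The other T47D markers were listed in MDA-MB-231: KRT8 at 315.5 to 385.7 CPM, KRT18 at 337.4 to 402.6, GATA3 at 15.5 to 18.9 and CDH1 at 0.763 to 1.6. In T47D KRT8 had 2091 to 2425 CPM and KRT18 1175 to 1376 CPM. Some listed markers were low in their own line, SPARC at 0.347 to 0.605 CPM in MDA-MB-231 and TFF1 at 1.383 to 4.075 CPM in T47D. Of the markers of other cells, leukocyte genes summed to at most 1.80 CPM (2 of 5 listed in each line), and of 4 endothelial genes none was listed in T47D and 2 in MDA-MB-231 (8.38 to 10.3 CPM). Fibroblast genes summed to 24.7 to 40.1 CPM in T47D (2 of 6 listed) and to 8.69 to 10.6 CPM in MDA-MB-231 (3 of 6 listed). In T47D that sum was 24.7 to 27.3 CPM at day 15 against 34.5 to 40.1 CPM in the controls, and its part in the results was not tested.

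One library stood apart. In T47D, day 15 replicate 2 differed from its replicates 1 and 3 with a chi-square over genes of 14.5 and 23.6 per degree of freedom, against 1.74 to 5.92 for the replicate pairs of every group that do not include it. The libraries also differed in base composition, given here as a GC contrast: the median log2 deviation of the GC-richest of 5 equal bins of genes minus that of the GC-poorest bin. In T47D day 15 it was -0.02, 0.22 and -0.18 in replicates 1 to 3, against -0.08, -0.03 and 0.08 in the controls. In MDA-MB-231 it was 0.12, 0.07 and -0.03 in the controls, 0.04, 0.02 and -0.01 at day 3, and -0.06, -0.03 and -0.11 at day 15, all day 15 values lying at or below the controls. Results that rest on these libraries are given below with and without the T47D library, and with a correction for GC content and length that was chosen after seeing the data.

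**Figure D1:**
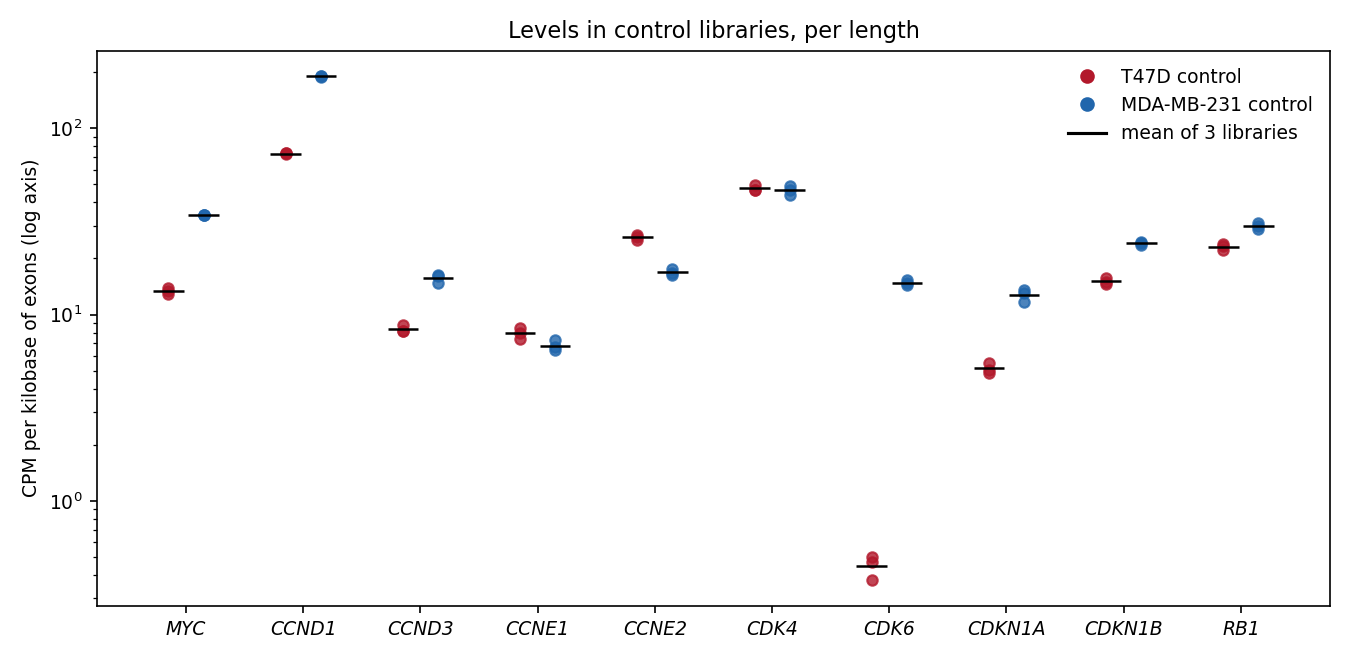
Level of each gene in the control libraries, as CPM per kilobase of exons on a log axis, with T47D left of MDA-MB-231; points are libraries and bars the mean of 3. CCND1 was the highest in both lines (means 73.2 in T47D and 190 in MDA-MB-231) and CDK6 the lowest in T47D (mean 0.446).

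Per kilobase of exons, the T47D controls had CCND1 at 73.2 ± 0.767 (SD, n = 3), followed by CDK4 at 47.7, CCNE2 at 26.1, RB1 at 23.1, CDKN1B at 15.1, MYC at 13.4, CCND3 at 8.41, CCNE1 at 7.94, CDKN1A at 5.15 and CDK6 at 0.446 CPM per kb. In that order the libraries of CCND3 and CCNE1 overlapped (8.19 to 8.84 against 7.42 to 8.47), and no other neighbours did. The MDA-MB-231 controls had CCND1 at 190 ± 1.11 (SD, n = 3), followed by CDK4 at 46.4, MYC at 34.2, RB1 at 29.8, CDKN1B at 24.2, CCNE2 at 16.9, CCND3 at 15.8, CDK6 at 14.9, CDKN1A at 12.8 and CCNE1 at 6.81 CPM per kb. There the libraries of CCNE2 overlapped those of CCND3, and those of CCND3 overlapped those of CDK6. CDK6, the second of the D cyclin kinases, had 4.58 to 6.09 CPM in T47D controls and 177 to 188 CPM in MDA-MB-231 controls. The tables were normalized separately for each line, so such levels across lines are given without a test. Exon lengths are from GENCODE v29, which may differ from the annotation used for counting. Exons of CDK4, CCNE2 and CCND1 overlap listed genes on the opposite strand (TSPAN31 over 43.2%, INTS8 over 37.1% and LTO1 over 10.3% of the member's exon bases), and whether strand was used in counting is not given in the sources used here, so their values are uncertain to that extent.

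The question of the design was what induced G0S2 does to each line early and late. Those of the 10 regulators that were called against control changed by less than 20% of their level. A regulator without a call is not shown to be unchanged. The limma interval of CDK6 at T47D day 15, for example, ran from -0.04 to 0.43 on the log2 scale. In T47D, 0 of 10 were called at day 3 and 2 of 10 at day 15, both higher, CCND1 and CDKN1B. In MDA-MB-231, 1 of 10 was called at day 3 (CDKN1A, higher) and 1 of 10 at day 15 (CCND3, lower). A call is an adjusted p under 0.05 in limma with Benjamini-Hochberg adjustment over all genes of the table. In T47D it took in 1.88% of all genes at day 3 and 11.2% at day 15, and in MDA-MB-231 1.77% and 8.2%. With 10 genes, 1 call is the smallest step above none, and the counts are not read as a result about the set. At an unadjusted p under 0.05, 1 member passed at T47D day 3, 2 at T47D day 15, 1 at MDA-MB-231 day 3 and 2 at MDA-MB-231 day 15, as did 10.1%, 24.1%, 13.6% and 23.7% of all genes in these 4 comparisons. The median size of the log2 fold over the members was 0.02 at T47D day 3 and 0.07 at T47D day 15, against 0.05 and 0.08 over all genes. In MDA-MB-231 it was 0.03 at day 3 and 0.04 at day 15, against 0.05 and 0.07. In bulk RNA, fewer cells in a state and less RNA per cell cannot be told apart.

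**Figure D2:**
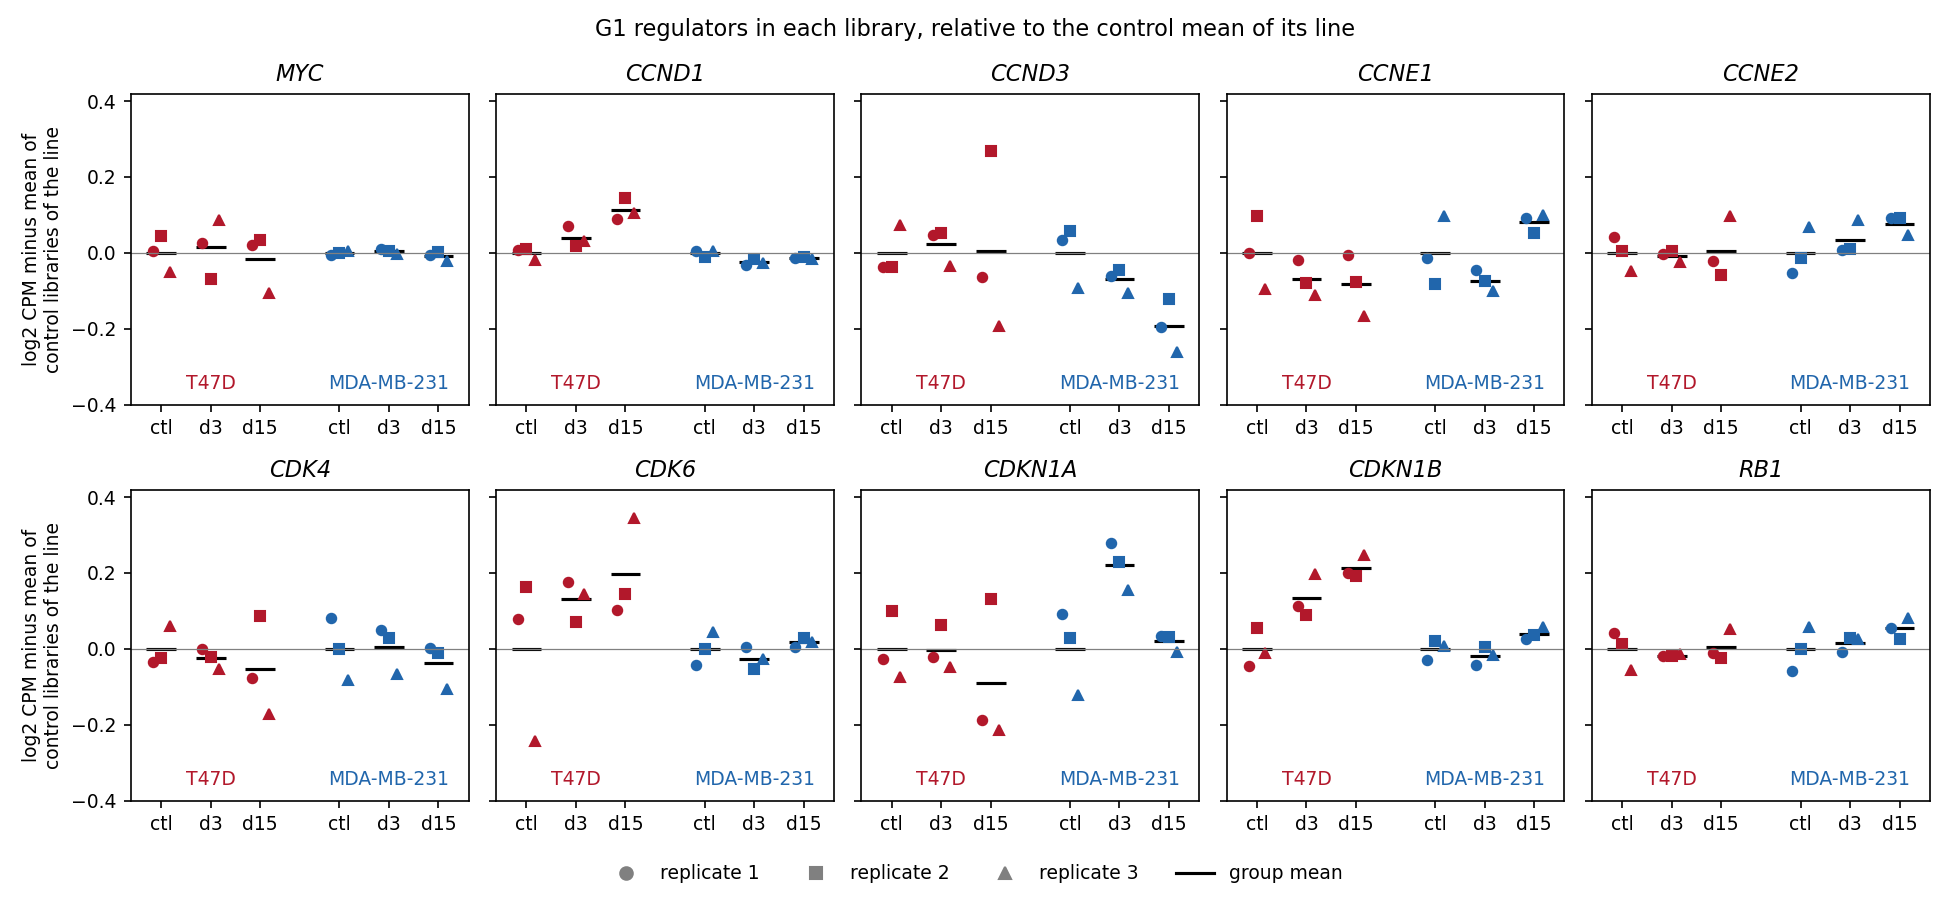
Each panel shows 1 gene; the vertical axis is log2 CPM minus the mean of the line's control libraries, points are libraries, shapes mark the replicate number, bars are group means, and ctl, d3 and d15 are control, day 3 and day 15. CDKN1B and CCND1 stand above the T47D controls in every day 3 and day 15 library, and T47D day 15 replicate 2 lies above the other 2 libraries of its group for CCND3, CDK4 and CDKN1A.

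Among the mitogen-side regulators, MYC, the transcription factor that drives growth and cell cycle genes, gave no call in either line. In MDA-MB-231 it had 102, 103 and 103 CPM in the controls, 103, 103 and 103 CPM at day 3, and 102, 103 and 101 CPM at day 15. The limma log2 folds were 0.00 (95% interval -0.05 to 0.06) at day 3 and -0.01 (-0.06 to 0.05) at day 15. In T47D MYC had 38.9 to 41.5 CPM in the controls, 38.4 to 42.7 CPM at day 3, then 37.4 to 41.2 CPM by day 15. The log2 folds there were 0.01 (-0.10 to 0.13) and -0.02 (-0.13 to 0.10), so that none of the 4 intervals reaches a fold of 0.15 in size.

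CCND1, which encodes cyclin D1 and lies on chromosome 11 (69641087 to 69654474, plus strand, GRCh38), rose in T47D at day 15. It had 356, 356 and 349 CPM in the control libraries, 372, 358 and 361 CPM at day 3, and 376, 391 and 380.5 CPM at day 15. The T47D groups did not overlap at either time, with every induced library above every control. The log2 fold was 0.11 ± 0.03 (SE, n = 3 against 3; 8.2% higher; limma, Benjamini-Hochberg adjusted p = 0.0211) at day 15. It was 0.04 at day 3 (adjusted p = 0.749) and 0.07 between day 15 and day 3 (adjusted p = 0.186). The day 15 call was lost without T47D control replicate 1, 2 or 3 (adjusted p = 0.0611, 0.0729 and 0.0803), at log2 folds of 0.11 to 0.12. It was also lost without trend and robust moderation (0.079) and in a fit of the compared groups only (0.0742). In MDA-MB-231 CCND1 had 921, 913 and 922 CPM in the controls, 899, 908 and 902 CPM at day 3, and 910, 912 and 908 CPM at day 15. The log2 folds there were -0.02 (-0.06 to 0.01) and -0.01 (-0.05 to 0.02), and neither was called, although the libraries of both times lay below the controls. At day 15 the nearest libraries stood at 912.44 CPM (day 15 replicate 2) and 912.53 CPM (control replicate 2).

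CCND3, which encodes cyclin D3 (chromosome 6, 41934933 to 42050357, minus strand, GRCh38), fell in MDA-MB-231 at day 15. It had 93.6, 95.1 and 85.7 CPM in the controls, 87.6, 88.6 and 85.0 CPM at day 3, and 79.8, 84.0 and 76.3 CPM at day 15. Day 15 lay below the controls and below day 3, while day 3 and the controls overlapped. The log2 fold at day 15 was -0.19 ± 0.04 (SE, n = 3 against 3; -12.5%; limma, Benjamini-Hochberg adjusted p = 0.00242), and it was -0.07 at day 3 (adjusted p = 0.448). The day 15 call held without each of the 6 libraries in turn (adjusted p at most 0.0351), and with the GC and length correction the fold was -0.15 (adjusted p = 0.0052). It was lost without trend and robust moderation (adjusted p = 0.109). Between day 15 and day 3 the fold of -0.12 was not called (adjusted p = 0.0603), but it was without day 15 replicate 2 (-0.16, adjusted p = 0.00772) and in a fit of the compared groups only (adjusted p = 0.0473). The longest transcript of CCND3 has a GC content of 56.2%, against a median of 48.2% over listed genes.

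In T47D, CCND3 had 47.5, 47.5 and 51.3 CPM in the controls, 50.4, 50.6 and 47.6 CPM at day 3, and 46.6, 58.7 and 42.6 CPM at day 15. The 3 day 15 libraries lay on both sides of the controls, replicate 2 being the highest and the other 2 the lowest of all. The log2 fold of 0.00 (-0.20 to 0.21) at day 15 turned to -0.13 without that library (limma, adjusted p = 0.0423), a call in the other direction.

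The kinases that D cyclins activate gave no call in either line with all libraries. CDK4 had 148 to 158 CPM in T47D controls, 146 to 151 CPM at day 3, and 143, 161 and 134 CPM at day 15; its log2 folds were -0.02 (-0.14 to 0.09) and -0.05 (-0.17 to 0.06). Without T47D day 15 replicate 2 the day 15 fold was -0.12 (limma, adjusted p = 0.00808). In MDA-MB-231 CDK4 had 139 to 156 CPM in the controls, 140 to 152 CPM at day 3, then 137 to 147 CPM by day 15, with folds of 0.00 (-0.08 to 0.09) and -0.04 (-0.12 to 0.04). CDK6 in T47D had 5.74, 6.09 and 4.58 CPM in the controls, 6.15, 5.70 and 6.01 CPM at day 3, and 5.83, 6.015 and 6.92 CPM at day 15. Its folds of 0.13 (-0.10 to 0.36) and 0.20 (-0.04 to 0.43) had the widest intervals of any member there, on 183 to 331 reads a library. In MDA-MB-231 CDK6 had 177 to 188 CPM in the controls, 176 to 183 CPM at day 3, then 183 to 186 CPM by day 15, with folds of -0.03 and 0.02.

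The E cyclins, which activate CDK2 at the entry into S phase, gave no call either. CCNE1 had 18.9 to 21.6 CPM in T47D controls, 18.7 to 19.9 CPM at day 3, then 17.99 to 20.12 CPM by day 15, with log2 folds of -0.07 and -0.08 (limma adjusted p = 0.826 and 0.475). In MDA-MB-231 it had 16.4 to 18.6 CPM in the controls, 16.2 to 16.8 CPM at day 3, then 17.99 to 18.59 CPM by day 15. Day 15 lay above day 3 without overlap, at a fold of 0.15 (0.04 to 0.27; adjusted p = 0.105). CCNE2 had 111 to 118 CPM in T47D controls, 113 to 115 CPM at day 3, then 110 to 123 CPM by day 15, with folds of -0.01 and 0.01. In MDA-MB-231 CCNE2 had 71.4 to 77.7 CPM in the controls, 74.6 to 78.6 CPM at day 3, then 76.6 to 79.0 CPM by day 15. Its day 15 fold of 0.08 (0.01 to 0.15; adjusted p = 0.17) passed the threshold without control replicate 3, at 0.11 (adjusted p = 0.0406). With the GC and length correction on all libraries that fold was 0.03 (limma, adjusted p = 0.6). CCNE2 has a GC content of 36.9%.

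CDKN1A (chromosome 6, 36676460 to 36687339, plus strand, GRCh38), which encodes p21, rose at day 3 in MDA-MB-231 and fell again by day 15. It had 41.5, 39.7 and 35.8 CPM in the controls, 47.3, 45.7 and 43.4 CPM at day 3, and 39.9, 39.8 and 38.8 CPM at day 15. All day 3 libraries lay above all others, and day 15 lay within the range of the controls. The log2 fold at day 3 was 0.22 ± 0.05 (SE, n = 3 against 3; 16.6% higher; limma, Benjamini-Hochberg adjusted p = 0.00762), and at day 15 it was 0.02 (-0.08 to 0.11; adjusted p = 0.84). Day 15 against day 3 gave a fall of 0.20 ± 0.05 on the log2 scale (adjusted p = 0.012), the single call of the 10 members in that comparison, in which 5.33% of all genes were called.

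Over the 6 omissions of single libraries the day 3 fold of CDKN1A was 0.16 to 0.27. It missed the threshold without control replicate 3 (0.16, adjusted p = 0.0572), without day 3 replicate 1 (0.19, adjusted p = 0.0987) or without day 3 replicate 2 (0.22, adjusted p = 0.0615). The fall from day 3 to day 15 missed it without day 3 replicate 1 (adjusted p = 0.109) or replicate 2 (adjusted p = 0.0721). Both missed it without trend and robust moderation (adjusted p = 0.219 and 0.166). With the GC and length correction both calls held, at 0.23 (adjusted p = 0.00052) and -0.16 (adjusted p = 0.0167); CDKN1A has a GC content of 58.1%.

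In T47D CDKN1A had 15.4, 16.8 and 14.9 CPM in the controls, 15.5, 16.4 and 15.2 CPM at day 3, and 13.8, 17.2 and 13.5 CPM at day 15. The day 3 libraries lay within the range of the controls, and at day 15 replicates 1 and 3 lay below that range and replicate 2 above it. The log2 folds were 0.00 (-0.19 to 0.18) at day 3 and -0.09 (-0.28 to 0.09) at day 15. Without T47D day 15 replicate 2 the day 15 fold was -0.20 (limma, adjusted p = 0.0283).

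CDKN1B (chromosome 12, 12715058 to 12722371, plus strand, GRCh38), which encodes p27, rose in T47D at day 15. It had 41.01, 43.97 and 42.03 CPM in the controls, 45.74, 45.02 and 48.57 CPM at day 3, and 48.6, 48.3 and 50.2 CPM at day 15. Every induced library lay above every control at both times, and day 15 overlapped day 3 only through day 3 replicate 3. The log2 fold at day 15 was 0.21 ± 0.04 (SE, n = 3 against 3; 15.8% higher; limma, Benjamini-Hochberg adjusted p = 0.00654). At day 3 it was 0.13 (0.04 to 0.23; adjusted p = 0.232, and 0.0304 in a fit of the compared groups only), and between day 15 and day 3 it was 0.08 (adjusted p = 0.392). The day 15 call held without each of the 6 libraries in turn, at folds of 0.19 to 0.24, and in all 8 other settings tried.

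In MDA-MB-231 CDKN1B had 66.5, 68.9 and 68.3 CPM in the controls, 65.9, 68.1 and 67.1 CPM at day 3, and 69.1, 69.6 and 70.6 CPM at day 15. Day 15 lay just above the controls without overlap, at a log2 fold of 0.04 (-0.03 to 0.11), and day 3 gave -0.02 (-0.08 to 0.05); neither was called. RB1, the pocket protein that holds E2F factors, had 144 to 154 CPM in T47D controls, 147 to 148 CPM at day 3, then 147 to 155 CPM by day 15, with folds of -0.02 (-0.09 to 0.06) and 0.01 (-0.07 to 0.08). In MDA-MB-231 RB1 had 185 to 200.3 CPM in the controls, 191 to 196 CPM at day 3, then 196 to 203 CPM by day 15, with folds of 0.02 (-0.04 to 0.07) and 0.05 (0.00 to 0.11).

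**Figure D3:**
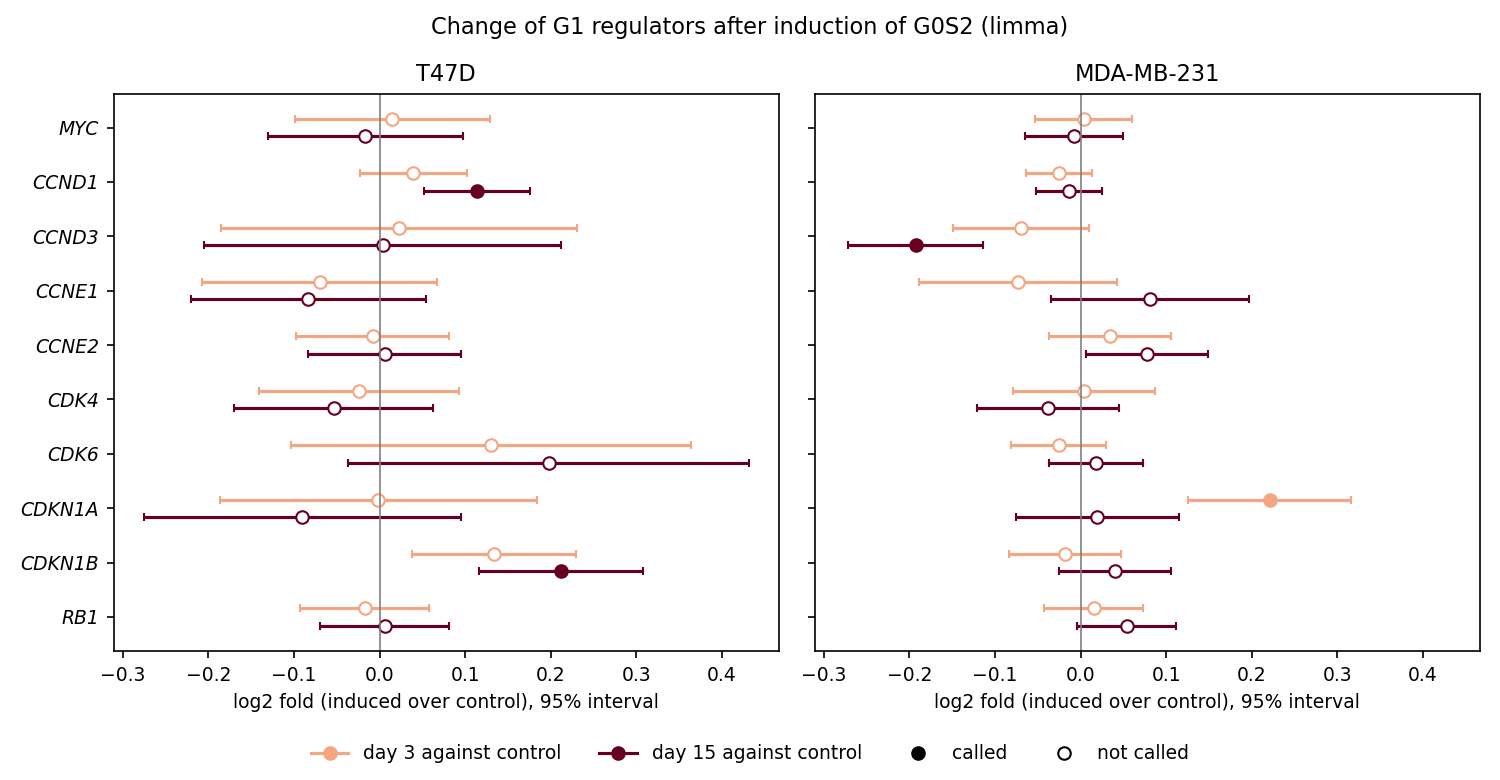
log2 fold of each gene, induced over control, with its 95% interval from limma; the left panel is T47D and the right panel MDA-MB-231, light is day 3, dark is day 15, and filled points are called. The 4 filled points are CCND1 (0.11) and CDKN1B (0.21) in T47D at day 15, CDKN1A (0.22) at day 3 and CCND3 (-0.19) at day 15 in MDA-MB-231.

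Counted by separation alone, 2 members (CCND1 and CDKN1B, both above the controls) had groups that did not overlap at T47D day 3, where 21.9% of all genes did so, and 2 at T47D day 15, where 26.3% did. In MDA-MB-231 it was 2 at day 3 (CDKN1A above and CCND1 below, with 20.5% of all genes) and 3 at day 15 (CDKN1B above, CCND1 and CCND3 below, with 24.3%). Between day 15 and day 3 it was 1 in T47D (CCND1 above, with 22.4% of all genes) and 5 in MDA-MB-231 (CCNE1, CDK6 and CDKN1B above, CCND3 and CDKN1A below, with 25.1%). Comparisons at day 3 and day 15 share their control libraries. Between day 15 and day 3 in T47D, 0 of 10 members were called by limma (5.58% of all genes; 1 member, CCND1, at an unadjusted p under 0.05, with 18% of all genes). That comparison gave 1 call, CCND1, with the GC and length correction (0.09, adjusted p = 0.0227).

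**Figure D4:**
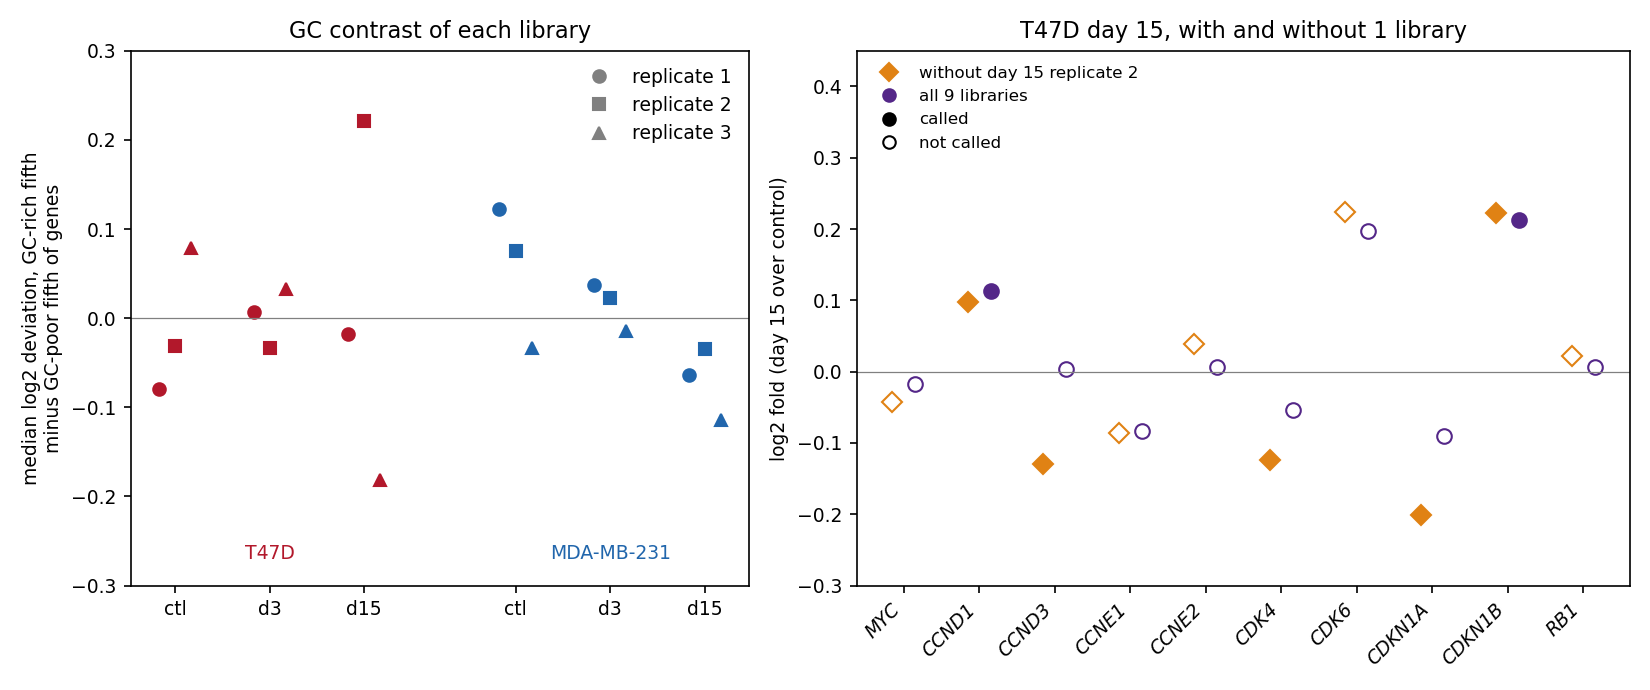
Left, GC contrast of each library (median log2 deviation of the GC-richest of 5 bins of genes minus that of the poorest), by line and group, with shapes for the replicate number; right, log2 fold at T47D day 15 over control for each gene, without day 15 replicate 2 (diamonds) and with all 9 libraries (circles), filled where called. That library has the highest contrast (0.22), and without it CCND3, CDK4 and CDKN1A turn from open to filled points below 0.

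Leaving out T47D day 15 replicate 2 raised the calls at T47D day 15 to 5 of 10 members, but also to 25.1% of all genes. CCND1 (0.10, limma adjusted p = 0.00541) and CDKN1B (0.22, adjusted p = 0.000397) kept their rise, and CCND3, CDK4 and CDKN1A were then lower. Against day 3 the same 3 genes were called lower, at -0.15, -0.10 and -0.20, where 17.6% of all genes were called. Their GC contents are 56.2%, 53.6% and 58.1%, against a median of 48.2%. MYC (53.9%), CCNE1 (52.9%) and CCND1 (50.3%) also lie above that median, and without that library MYC (-0.04) and CCNE1 (-0.09) were not called. The GC contrast of the 2 libraries that remain is -0.02 and -0.18. With the GC and length correction on all libraries the limma calls of CCND1 (0.12, adjusted p = 0.00172) and CDKN1B (0.21, adjusted p = 0.00107) held. In that fit CCND3 (-0.02, adjusted p = 0.879), CDK4 (-0.07, adjusted p = 0.186) and CDKN1A (-0.12, adjusted p = 0.26) were not called. The part of base composition in the 3 lower calls was not tested.

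Whether the lines responded differently was tested as T47D response minus MDA-MB-231 response over the 12666 shared genes. At day 3, 0 of 10 members were called (2.46% of all genes; 3 members at an unadjusted p under 0.05, with 11.7% of all genes). At day 15, 2 of 10 were called (9.44% of all genes), CCND1 and CDKN1B. The difference was 0.13 ± 0.03 on the log2 scale for CCND1 (SE; 0.11 in T47D and -0.01 in MDA-MB-231; limma adjusted p = 0.00991), and this call held without each of the 12 libraries in turn. It was 0.17 ± 0.05 for CDKN1B (0.21 in T47D and 0.04 in MDA-MB-231; adjusted p = 0.0347). The CDKN1B call was lost without any of 8 libraries: MDA-MB-231 control replicate 2 or 3, MDA-MB-231 day 15 replicate 1 or 2, T47D control replicate 1 or 3, and T47D day 15 replicate 1 or 3 (adjusted p = 0.0509 to 0.0981), and in a fit of the compared groups only (0.0658). CCND3, called lower in MDA-MB-231 alone, differed by 0.20 (-0.04 to 0.43; adjusted p = 0.312), so its responses were not shown to differ. It passed without T47D day 15 replicate 3 (0.29, adjusted p = 0.0469), an omission that keeps replicate 2, the library that stood apart. Without replicate 2 the CCND3 fold in T47D was -0.13, beside -0.19 in MDA-MB-231. CDKN1A at day 3 likewise differed by -0.22 (-0.44 to -0.00331; adjusted p = 0.416).

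Around the 10 members, 9 further lists of the same pathway were read by their counts. Their median log2 folds lay between -0.04 and 0.01 at T47D day 3, -0.05 and 0.08 at T47D day 15, -0.05 and 0.09 at MDA-MB-231 day 3, and -0.05 and 0.03 at MDA-MB-231 day 15, against 0.00 over all genes in each. Of the other inhibitors, CDKN2B, which encodes the CDK4 and CDK6 inhibitor p15, fell in T47D at day 15, the single call among 5 listed. At day 3 limma called 0 of 5 listed inhibitors in T47D and 0 of 4 in MDA-MB-231 (0 and 1 at an unadjusted p under 0.05). CDKN2B had 12.7 to 14.7 CPM at day 15 against 17.7 to 20.4 CPM in the controls, a log2 fold of -0.49 ± 0.07 (SE; limma adjusted p = 0.000416) that held without each of the 6 libraries in turn. In size it exceeded the fold of every member in that comparison. CDKN2A and CDKN2B were listed in T47D alone, and CDKN1C and CCND2 in MDA-MB-231 alone. In MDA-MB-231 at day 15, 2 of 4 listed inhibitors were called, CDKN3 (0.14), a phosphatase of the cyclin-dependent kinases, and CDKN2D (-0.16), which encodes p19. CDKN3 was lost without control replicate 2 or day 15 replicate 3 (adjusted p at most 0.102), and CDKN2D without control replicate 1 or 2 or day 15 replicate 1 or 3 (at most 0.295) and with the GC and length correction (0.293). Of the other G1 cyclins and kinases, such as CDK2 and CCNA2, 0 of 9 were called in T47D and 0 of 10 in MDA-MB-231 at either time by limma. At an unadjusted p under 0.05 there were 0 and 1 in T47D and 2 and 1 in MDA-MB-231, at day 3 and day 15.

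On the target side of RB1, E2F1, the founding E2F factor, was the single call among 18 pocket proteins and E2F factors in MDA-MB-231 at both times. It had 81.4 to 85.1 CPM at day 3, then 76.2 to 84.0 CPM by day 15, against 87.4 to 93.2 CPM in the controls, at log2 folds of -0.14 (limma adjusted p = 0.047) and -0.17 (adjusted p = 0.00433). The day 3 call was lost on leaving out any library but control replicate 3 (adjusted p up to 0.280), and the day 15 call without control replicate 2 (0.0513) and with the GC and length correction (0.131). Of 24 E2F-driven S phase genes, E2F1 among them, 1 was called lower at day 3 and 2 at day 15 in MDA-MB-231. The other is MYBL2 (-0.17), a cell cycle transcription factor, whose call held without each library but not with the correction (adjusted p = 0.305). The list's median fold was -0.05 at day 3 and 0.02 at day 15, against 0.00 over all genes at both times. At day 3, 8 of the 24 had an unadjusted p under 0.05, all lower, where 13.6% of all genes had one.

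From day 3 to day 15 MDA-MB-231 cells had 6 of these 24 genes called higher and none lower, against 5.33% of all genes in either direction, with 11 at an unadjusted p under 0.05, all higher, where 21.3% of all genes had one. They include RRM2 (0.12), a subunit of ribonucleotide reductase. Each of the 6 was lost in at least 2 of 6 omissions, RRM2 without day 3 replicate 1 or 2 (adjusted p at most 0.0578). In T47D, 0 of 24 were called at day 3 (2 at an unadjusted p under 0.05) and 2 at day 15, UHRF1 (0.17) and GINS2 (0.11), both higher. Both were lost without T47D control replicate 1, control replicate 2 or day 15 replicate 1 (adjusted p at most 0.123). RBBP4 (0.10), a chromatin protein that binds RB1, was the single call of 18 pocket proteins and E2F factors there (none at day 3 by limma, 2 at an unadjusted p under 0.05), and was lost on leaving out any library but day 15 replicate 2 (at most 0.126).

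The calls among the p53 targets beside CDKN1A did not share one direction. In MDA-MB-231 at day 3, where CDKN1A rose, 1 of 22 was called, PLK2 (-0.10), and at day 15 1 was higher (TIGAR, 0.17) and 1 lower (TNFRSF10B, -0.13). The list's median fold at day 3 was 0.05, against 0.00 over all genes. At an unadjusted p under 0.05, 2 were higher and 2 lower there, with 13.6% of all genes. From day 3 to day 15, where CDKN1A fell, 2 were called lower and 0 higher (5.33% of all genes). At an unadjusted p under 0.05, 5 were lower and 2 higher in that comparison, with 21.3% of all genes. PLK2 at day 3 kept its call in 1 of 6 omissions (without control replicate 3; adjusted p up to 0.133). In T47D, TP53I3 fell at day 3 (-0.22), and at day 15 PLK2 rose while SESN2, RRM2B and RPS27L fell. At an unadjusted p under 0.05 there were 5 at T47D day 3, all lower, with 10.1% of all genes. At T47D day 15 there were 3 higher and 5 lower, with 24.1% of all genes. PLK2, a polo-like kinase, had 135 to 140.0 CPM at day 15 against 105 to 108 CPM in the T47D controls, a log2 fold of 0.37 (limma adjusted p = 6.9e-06) that held without each library, as did RPS27L (-0.20). TP53I3 was lost without control replicate 3, day 3 replicate 1 or day 3 replicate 2 (at most 0.0831). SESN2 (-0.33) was lost without control replicate 1, 2 or 3 or day 15 replicate 1 (at most 0.101), and RRM2B (-0.15) without control replicate 1, control replicate 2 or day 15 replicate 1 (at most 0.124). In MDA-MB-231, TNFRSF10B was lost without control replicate 1, control replicate 2 or day 15 replicate 1 (at most 0.111), and TIGAR on leaving out any library but day 15 replicate 3 (at most 0.114) and with the GC and length correction (0.0784).

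FOXO factors can activate CDKN1B, and a list of 9 FOXO factors and targets had a median fold of 0.09 in MDA-MB-231 at day 3. Of the 9, 3 were called higher there, where 1.77% of all genes were called: FOXO4 (0.35), CCNG2 (0.18) and IRS2 (0.15). Each was lost in at least 4 of 6 omissions. FOXO4 kept its call without control replicate 1 alone (adjusted p up to 0.317), IRS2 without control replicate 3 alone (up to 0.112), and CCNG2 without control replicate 3 or day 3 replicate 3 (up to 0.0792). At day 15 IRS2 (0.16) was higher and PINK1 (-0.16) lower, and both calls held without each library in turn. In T47D, where CDKN1B rose, 0 of 8 were called at day 3 (2 at an unadjusted p under 0.05, both lower) and 1 at day 15, KLF6 (-0.33), which held without each library.

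The lists on the MYC and ubiquitin side gave few calls against control. Of 12 MYC partners, none was called by limma in the 4 comparisons against control, with 1 and 3 in T47D and 2 and 7 in MDA-MB-231 at an unadjusted p under 0.05 at day 3 and day 15. The 7 stand beside 23.7% of all genes. In MDA-MB-231 at day 15 against day 3, MXI1 (-0.18, limma adjusted p = 0.0385) and MXD4 (-0.22, adjusted p = 0.0223), MAX partners that oppose MYC, were called lower. They were 2 of 12 listed, where 5.33% of all genes were called. At an unadjusted p under 0.05, 2 of the 12 were higher and 3 lower, with 21.3% of all genes. MXD1, a further such partner, stood higher at 0.17 (limma adjusted p = 0.122) and was not called. MXI1 was lost in each of 6 omissions (adjusted p up to 0.178), and MXD4 in all but that of day 15 replicate 2 (up to 0.0974) and with the GC and length correction (0.0588). Of 16 direct MYC targets, 1 was called in T47D at day 15 (NOP16, -0.17) and 1 in MDA-MB-231 at day 15 (RRS1, 0.13); at day 3 limma called none in either line (2 in T47D and 3 in MDA-MB-231 at an unadjusted p under 0.05). NOP16 was lost without T47D control replicate 1, 2 or 3 (adjusted p at most 0.133), and RRS1 without control replicate 1 or 2 or day 15 replicate 1 or 2 (at most 0.183). Between day 3 and day 15 MDA-MB-231 had 1 call among the 16 targets (5.33% of all genes), NOP56 (0.10, limma adjusted p = 0.0158). At an unadjusted p under 0.05 there were 7, all higher, with 21.3% of all genes. NOP56 was lost without day 3 replicate 1 or 2 or day 15 replicate 1 or 3 (at most 0.0893). T47D had 0 calls between these times, with 1 target higher and 1 lower at an unadjusted p under 0.05. Of 16 ubiquitin ligase genes that act on G1 regulators, the single call was RNF123 (-0.21), a ligase of p27, in MDA-MB-231 at day 15. In the other comparisons against control limma called none (2 and 4 in T47D at day 3 and day 15, 0 in MDA-MB-231 at day 3, at an unadjusted p under 0.05). RNF123 was lost without control replicate 1, control replicate 2 or day 15 replicate 1 (at most 0.113) and with the GC and length correction (0.096). The ligase list's median fold was -0.04 in T47D and 0.03 in MDA-MB-231 at day 15, against 0.00 over all genes.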

How the data were processed

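RNA of 18 libraries was measured. Per the submitters' processing notes, reads were handled with STAR, featureCounts and limma on GRCh38.p13, with no versions. The deposited tables, 1 per line, hold log2 CPM per gene, a unit read from the values; the sources used here give neither normalization nor low-gene filter. After removal of a library-scaled pseudocount (3 reads), the values gave whole reads within 0.1 for every value, which gave the depths; folds of genes with few reads are understated. limma 3.58.1 (R 4.3.3, statmod 1.5.0) was fitted to the 9 libraries of each line with group means, trend and robust moderation, and genes were called where p, adjusted by Benjamini-Hochberg across the table, was under 0.05; the difference between lines used 18 libraries and shared genes. The fit was tested on data simulated with the same dispersion for all genes and with no GC contrast or outlying library. That test does not measure how reliable the calls reported here are. Members, companion lists and rules were chosen with earlier results of these data known. Named beside the members are companions called against control, up to 4 a list in each line and comparison. RRM2, MXI1, MXD4, NOP56 and the uncalled or singly listed CDK2, CCNA2, MXD1, CDKN2A, CDKN1C and CCND2 were chosen after their values were seen. GC content and length had values for 89.7% of 16410 listed genes. Alternatives were log2(CPM + 1), a mean log2 CPM of at least 1, no trend, compared groups only, a replicate block, median-of-ratios scaling, voom on recovered reads, single libraries left out and, added later, a GC and length correction (splines with 4 degrees of freedom).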

Additional observations from a re-analysis of the deposited data

Results flagged for a closer look

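CCND1 and CDKN1B stood out because their responses at day 15 differed between the lines by a direct test. The T47D response minus the MDA-MB-231 response was 0.13 on the log2 scale for CCND1 (limma, Benjamini-Hochberg adjusted p = 0.00991), with 3 of 3 day 15 libraries above all controls in T47D and 3 of 3 below all controls in MDA-MB-231. It was 0.17 for CDKN1B (adjusted p = 0.0347), with 3 of 3 day 15 libraries above all controls in both lines. The test between lines called 9.44% of all genes at day 15. Day 15 and control groups did not overlap for 26.3% of all genes in T47D and 24.3% in MDA-MB-231. In MDA-MB-231 the day 15 folds were -0.01 for CCND1 and 0.04 for CDKN1B, and neither was called. The nearest CCND1 libraries there stood at 912.44 CPM (day 15 replicate 2) and 912.53 CPM (control replicate 2), a narrow margin. The size of the CDKN1B difference was 0.15 to 0.20 over the omissions of single libraries, and its call was lost in 8 of 12 omissions and in 2 of 8 other settings (compared groups only and the replicate block).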

How the results depend on the processing

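All 7 member calls kept their direction and stayed called under log2(CPM + 1), the filter, median-of-ratios scaling, voom and the GC and length correction. Without trend and robust moderation 0 members were called in the 3 MDA-MB-231 comparisons and 1 at T47D day 15. With compared groups only the count was 2 for MDA-MB-231 day 15 against day 3, 1 at T47D day 3, 1 at T47D day 15 and 1 for the day 15 difference between lines. The labels tie replicate numbers to no shared culture or batch, and the numbers were not taken as pairs. Same-numbered libraries correlated at -0.41 to 0.0726 in T47D (0 of 9 pairs over 0.1) and -0.0309 to 0.28 in MDA-MB-231 (4 of 9), and 0 of 9 and 6 of 9 libraries correlated best with their own number, in MDA-MB-231 a hint from the data, not the design. With the replicate block 2 members were called for MDA-MB-231 day 15 against day 3, where CCND3 was added (adjusted p = 0.00291), 1 at T47D day 15, where CCND1 was lost (0.0666), and 1 for the day 15 difference, where CDKN1B was lost (0.0525). The GC and length correction gave 1 for T47D day 15 against day 3.

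Leaving out single libraries gave 1 to 5 calls at T47D day 15, 0 to 3 for T47D day 15 against day 3, 0 to 1 at MDA-MB-231 day 3, 1 to 2 at MDA-MB-231 day 15, 0 to 2 for MDA-MB-231 day 15 against day 3 and 1 to 2 for the day 15 difference. The 5 and the 3 calls came without T47D day 15 replicate 2, where 25.1% and 17.6% of all genes were called. CCND3 at T47D day 15 ranged from -0.13 (without day 15 replicate 2) to 0.10 over these omissions. The cause was not tested.

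Counts over all genes moved by more than 1.5 times in places. Without trend they were 63 at MDA-MB-231 day 3, 232 at day 15 and 32 between the times (253, 1173 and 763 in the reported fit), and 549 for T47D day 15 against day 3 (824). With compared groups only they were 476 and 776 at MDA-MB-231 day 3 and day 15, 921 and 996 at T47D day 3 and day 15 (277 and 1659), 463 for T47D day 15 against day 3, and 640 and 769 for the differences between lines (311 and 1196). The block gave 637, 2273 and 1788 in the MDA-MB-231 comparisons and 511 for T47D day 15 against day 3. The correction gave 632, 2658 and 1493 in the T47D comparisons and 469 for the day 3 difference. Leaving out single libraries gave as few as 119 at MDA-MB-231 day 3, 457 to 1897 at MDA-MB-231 day 15, 124 to 1664 between those times, as few as 182 at T47D day 3, 930 to 3705 at T47D day 15, 403 to 2604 between those times and up to 1899 for the day 15 difference. At 183 to 331 reads, CDK6 in T47D is the member whose precision depth limits most.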
